A study of Mus musculus with 12 samples.

Results

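The platelet-derived growth factor (PDGF) ligands and receptors were examined as 6 genes, chosen by symbol: the ligand genes Pdgfa, Pdgfb, Pdgfc and Pdgfd and the receptor genes Pdgfra and Pdgfrb. All 6 were found among the 56860 named genes of the count table, and all 6 were among the 16600 genes that passed the filter on low counts and were tested. The cells were primary oligodendrocytes (OLs) of C57BL/6J mice, captured on anti-O4 beads from cortex freed of meninges and vessels, and matured in culture. Cells of the 6 siEgr2 libraries were transfected to silence Egr2 and those of the 6 siNC libraries with a scrambled control, and RNA was extracted 48 h later. The methods call the agent an siRNA in one place and an interference plasmid in another. The labels give the tissue as medial prefrontal cortex, and the methods describe cortex of newborn pups. No label says whether the libraries of a group came from separate cultures or animals, so the p-values measure the spread between these libraries, which may be technical. Both groups had been expanded in medium that contained the PDGF-A dimer (PDGF-AA) before they were moved to a maturation medium for which no PDGF is listed.

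PDGFs are secreted dimers that activate receptor tyrosine kinases. PDGF-A signals through the alpha receptor, PDGF-B binds both receptors, and PDGF-C and PDGF-D are secreted with an extra domain that a protease has to cut off before they can bind. In the developing brain the alpha receptor marks oligodendrocyte precursors, which need PDGF-A from astrocytes and neurons to divide and survive and lose the receptor as they mature. The beta receptor marks pericytes and vascular smooth muscle, which are recruited by PDGF-B from endothelial cells. Egr2 is a zinc finger transcription factor, and the comparison asks how this signaling system stood after Egr2 was targeted.

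The sequences just before the starts of Pdgfra and Pdgfa are shown because Pdgfra was the member that rose, Pdgfa encodes its main ligand, and the study assayed Egr2 binding at the Pdgfra locus. Each is the 250 bases before an annotated start, 5′ to 3′ on the strand of the gene, from RefSeq on GRCm38.p6, and Pdgfa has 2 listed starts. Pdgfra lies on the plus strand at chr5:75152001-75152250, and the Pdgfa windows on the minus strand at chr5:138994945-138995194 and chr5:138994282-138994531. Capitals mark matches on either strand to GTGGGNG or GNGGGCG. The latter is the end of the EGR family motif GCGNGGGCG, and the former covers the same positions with T fixed at the open base and any base in place of the last C. The searches overlap, and a match to the former need not be a stretch of the whole motif.
Pdgfra: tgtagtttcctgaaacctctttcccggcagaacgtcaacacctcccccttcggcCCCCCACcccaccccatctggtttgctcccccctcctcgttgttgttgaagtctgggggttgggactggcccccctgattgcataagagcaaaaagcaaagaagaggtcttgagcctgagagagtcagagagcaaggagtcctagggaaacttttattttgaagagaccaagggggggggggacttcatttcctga
Pdgfa, first window: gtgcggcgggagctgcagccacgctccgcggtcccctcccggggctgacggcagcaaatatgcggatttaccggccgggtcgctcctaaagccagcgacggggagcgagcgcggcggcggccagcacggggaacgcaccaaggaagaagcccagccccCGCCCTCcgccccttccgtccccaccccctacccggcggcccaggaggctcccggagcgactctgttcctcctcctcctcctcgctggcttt
Pdgfa, second window: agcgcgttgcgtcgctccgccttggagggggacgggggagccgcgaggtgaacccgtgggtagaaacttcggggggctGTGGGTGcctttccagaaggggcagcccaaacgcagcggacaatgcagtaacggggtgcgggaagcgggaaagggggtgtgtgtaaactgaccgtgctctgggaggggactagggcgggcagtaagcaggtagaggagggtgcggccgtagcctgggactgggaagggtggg
The Pdgfra window held 1 match to GTGGGNG, on the opposite strand between 196 and 190 bases before the start. The first Pdgfa window held 1 match to GNGGGCG and the second 1 match to GTGGGNG, and the windows listed for Pdgfc and Pdgfd held neither. None of these windows held the whole motif GCGNGGGCG. Among 32851 promoter windows of the same length, 28.1% held GTGGGNG, 28.3% held GNGGGCG and 4.70% held GCGNGGGCG, so matches to either short form are common. A match describes letters only. The Pdgfra window had a GC content of 54.4%, against 72.4% and 66.4% for the Pdgfa windows.

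The libraries differed in more than the siRNA. Total counts were 28682946 to 39383014 in siNC and 8034251 to 16683677 in siEgr2, and the 18S ribosomal RNA gene took 0.142% to 1.05% of the counts in siNC and 10.5% to 16.5% in siEgr2. Neither pair of ranges overlapped, so depth and ribosomal RNA share cannot be told apart from the treatment. Egr2, the targeted gene, was 3.89 to 7.06 CPM in siNC and 2.22 to 4.86 CPM in siEgr2, and these ranges overlapped (log2 fold change -0.51, adjusted p = 0.0981 by the quasi-likelihood test of edgeR). With library size alone its log2 fold change was -0.70 (adjusted p = 0.0144), past both thresholds. CPM, the level used here, is a gene's share of the library total after TMM scaling, with the total set to the same large number in each library. TMM corrects the library totals for a few very abundant RNAs. Genes were called where the adjusted p was under 0.05 and the absolute log2 fold change exceeded 0.5.

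Pdgfra rose in the siEgr2 group, Pdgfb and Pdgfrb fell, and Pdgfa, Pdgfc and Pdgfd did not pass the test. So 1 of 6 PDGF genes was called higher and 2 were called lower, where 2.63% of all tested genes were called higher, 5.08% lower and 7.72% in either direction. The 3 called members were also the 3 whose groups did not overlap in any library, a condition met by 11.2% of all tested genes. Without any fold change threshold the same 3 members passed, against 19.9% of tested genes. In bulk RNA, fewer cells of a type and less RNA per cell cannot be told apart, which applies to every level given here.

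**Figure D1:**
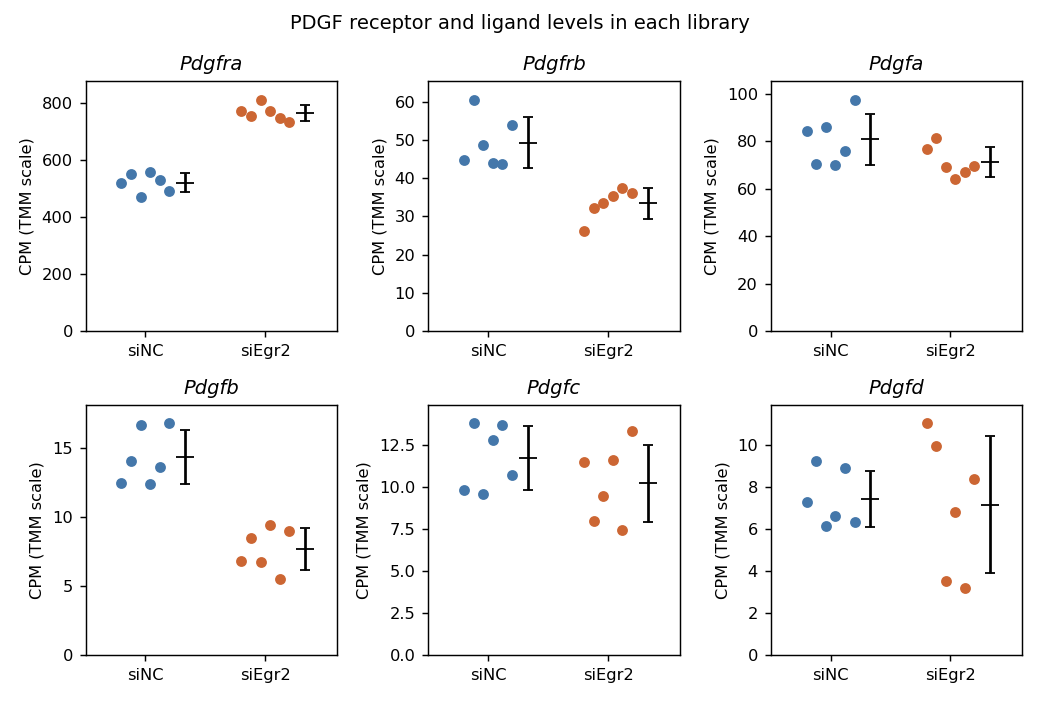
CPM on the TMM scale (vertical axes from 0) of the 6 PDGF genes in each library, with siNC in blue and siEgr2 in orange; bars give the mean and SD of 6 libraries. All siEgr2 points lie above all siNC points for Pdgfra and below them for Pdgfrb and Pdgfb, while the groups overlap for Pdgfa, Pdgfc and Pdgfd.

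Pdgfra, which encodes the alpha receptor, is a protein-coding gene of up to 23 exons on chromosome 5, plus strand, 75152292 to 75198215 (GRCm38). In siNC its lowest, median and highest levels were 472, 526 and 561 CPM, and in siEgr2 they were 735, 765 and 814 CPM. The lowest siEgr2 library thus lay above the highest siNC library. The mean was 522 ± 33.9 CPM in siNC and 767 ± 26.9 CPM in siEgr2 (SD, n = 6), a 1.47-fold rise. The log2 fold change was 0.56 (95% interval 0.47 to 0.64, adjusted p = 1.65e-07 by edgeR), and by p-value Pdgfra ranked 46 among the tested genes. These levels rested on at least 14657 counts in every siNC and 5860 in every siEgr2 library. The study had singled Pdgfra out in these same libraries, so its direction is not independent evidence. Of the 6 genes it also varied least between libraries of a group, with a coefficient of variation of 6.50% in siNC and 3.50% in siEgr2. The size of the rise depended on the scaling: with library size alone it was 0.37, under the fold change threshold, while the median of all tested genes moved to -0.18.

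Pdgfrb, which encodes the beta receptor, lies on chromosome 18, plus strand, 61045150 to 61085061. Its lowest, median and highest levels were 43.7, 46.8 and 60.5 CPM in siNC and 26.1, 34.5 and 37.5 CPM in siEgr2. Every siEgr2 library was below every siNC library. The log2 fold change was -0.56 (95% interval -0.77 to -0.36, adjusted p = 0.000562 by edgeR), which leaves 0.678 of the siNC level. This fall stood near the fold change threshold. Without siNC replicate 2, the library with the highest Pdgfrb level, it was -0.49 (adjusted p = 0.0011 by edgeR), and only Pdgfb was then called lower.

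Because the receptors went in opposite directions, their ratio separated the groups without any scaling. There were 9.12 to 12.8 Pdgfra counts per Pdgfrb count in siNC, with a median of 10.7. In siEgr2 there were 20 to 29.5, with a median of 22.7. The ratio compares libraries for a fixed pair of genes and is not a ratio of molecules, since the genes differ in length. Pdgfra counts per Pdgfa count likewise went from 5.06 to 8.03 in siNC to 9.33 to 12.1 in siEgr2.

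**Figure D2:**
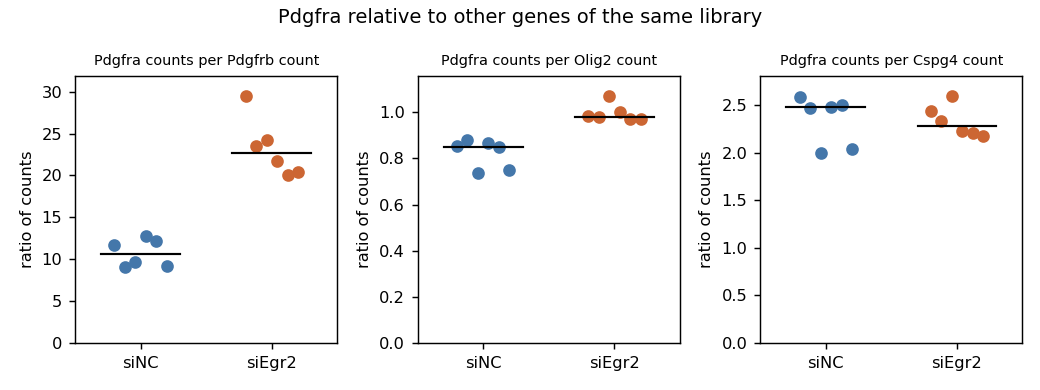
Raw count ratios within each library (vertical axes from 0), with siNC in blue, siEgr2 in orange and the group median as a line. Pdgfra per Pdgfrb (medians 10.7 and 22.7) and per Olig2 (0.851 and 0.981) separate the groups, and Pdgfra per Cspg4 (2.48 and 2.28) does not.

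Pdgfb, which encodes the PDGF-B chain, had the largest change of the 6 genes. It lies on chromosome 15, minus strand, 79995874 to 80014977. Its lowest, median and highest levels were 12.4, 13.8 and 16.8 CPM in siNC and 5.51, 7.63 and 9.42 CPM in siEgr2. The groups were well apart, although the siEgr2 values rested on 43 to 126 counts per library. The log2 fold change was -0.90 (95% interval -1.20 to -0.61, adjusted p = 0.000173 by edgeR), a level of 0.536 times that in siNC. It stayed called with every library left out in turn, over a range of -0.97 to -0.83.

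Pdgfa, which encodes the PDGF-A chain, was the most abundant ligand gene and lies on chromosome 5, minus strand, 138976014 to 138997370. Its lowest, median and highest levels were 69.8, 80.1 and 97.5 CPM in siNC and 64.0, 69.2 and 81.2 CPM in siEgr2. The upper siEgr2 libraries lay within the siNC range. The log2 fold change of -0.18 (95% interval -0.35 to -0.0042, unadjusted) did not pass (adjusted p = 0.145 by edgeR). With library size alone it was -0.36 (adjusted p = 0.00272 by edgeR), short of the fold change threshold, while the median of all tested genes was -0.18. An antisense gene, 6330403L08Rik, overlaps Pdgfa at 26.2 CPM in siNC and 23.7 CPM in siEgr2. Whether counting used strand is not given in the sources used here, so reads of the pair may be mixed.

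Pdgfc and Pdgfd, which encode the ligands that need cutting, were detected at low levels and could not be separated between the groups. Pdgfc (chromosome 3, plus strand, 81036416 to 81214040) was 9.57 to 13.8 CPM in siNC with a median of 11.8, and 7.43 to 13.4 CPM in siEgr2 with a median of 10.5. Its log2 fold change was -0.20 (95% interval -0.51 to 0.12, adjusted p = 0.402 in edgeR's test). It ran from -0.28 without siEgr2 replicate 6 to -0.13 without siEgr2 replicate 5, and with library size alone it was -0.38 (adjusted p = 0.0483 by edgeR). Pdgfd (chromosome 9, plus strand, 6168584 to 6378850) was 6.15 to 9.22 CPM in siNC with a median of 6.96, and 3.20 to 11.0 CPM in siEgr2 with a median of 7.59. Both the highest and the lowest Pdgfd values were in siEgr2 libraries, whose coefficient of variation was 45.6%. With 25 to 164 counts per siEgr2 library, the interval of its log2 fold change of -0.04 ran from -0.61 to 0.52 (adjusted p = 0.932 in edgeR's test), which includes a change of the size seen in Pdgfrb.

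**Figure D3:**
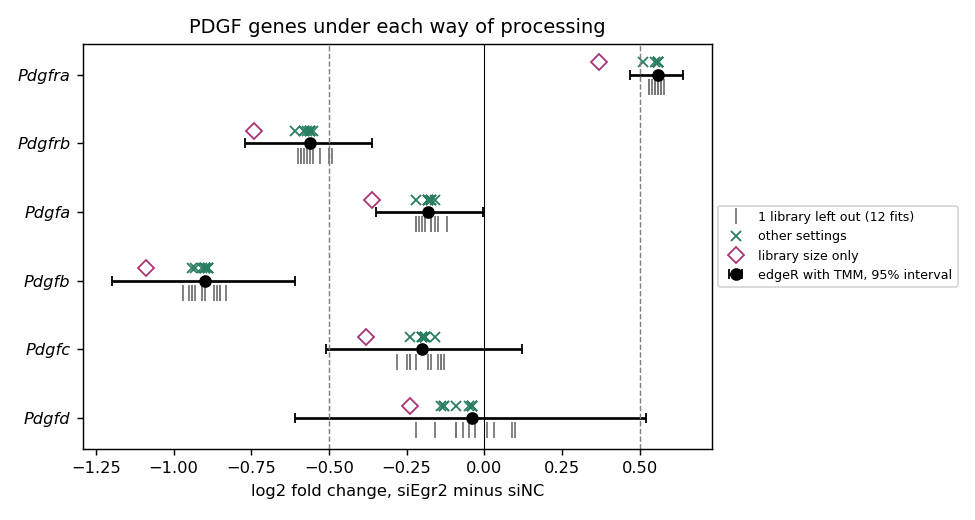
Log2 fold change of siEgr2 over siNC (horizontal axis) for the 6 PDGF genes. Black points with bars are the edgeR values with 95% intervals, grey ticks the 12 fits that left out 1 library, crosses the other settings and diamonds scaling by library size alone; dashed lines mark the threshold of 0.5. Pdgfb stays beyond the threshold throughout, Pdgfra falls short of it only with library size alone (0.37), and Pdgfrb only without 1 siNC library (-0.49).

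Tested singly, with an exact permutation test over all 924 assignments of the 12 libraries to groups of 6, the mean log2(CPM + 0.5) of Pdgfra, Pdgfrb and Pdgfb differed with p = 0.00216 each, the smallest p that this design allows (two-sided, 0.00505 after adjustment over 7 genes). The differences were 0.56, -0.55 and -0.87. The exact permutation p was 0.0866 for Pdgfa (adjusted 0.121), 0.234 for Pdgfc (adjusted 0.273) and 0.565 for Pdgfd (adjusted 0.565), and 0.0433 for Egr2 (adjusted 0.0758). With 1 library left out, the Egr2 permutation p reached 0.0909.

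Divided by the summed length of each gene's exons, the levels of the 6 genes could be ordered. In siNC, Pdgfra stood highest at 47.1 to 56.0 CPM per kilobase, followed by Pdgfa at 22.4 to 31.2, Pdgfrb at 7.99 to 11.0 and Pdgfb at 2.98 to 4.03. None of these ranges overlapped. Pdgfd (1.95 to 2.92) and Pdgfc (1.88 to 2.71) shared the lowest place. In siEgr2 the order of the first 3 was the same, at 73.3 to 81.2 for Pdgfra, 20.5 to 26.0 for Pdgfa and 4.77 to 6.85 for Pdgfrb. Pdgfb (1.32 to 2.26) was then no longer apart from Pdgfd (1.01 to 3.49) and Pdgfc (1.46 to 2.62). With the longest coding transcript as the length, a choice made after the data were seen, Pdgfc (2.72 to 3.92) and Pdgfd (1.97 to 2.95) in siNC still overlapped and still lay below Pdgfb (4.21 to 5.69).

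Among 15 markers of oligodendrocyte precursors, with Pdgfra left out, 11 were higher in siEgr2 and 1 lower by the adjusted p alone. By that criterion 1423 of all 16600 tested genes were higher and 1877 lower. The median log2 fold change of the markers was 0.26, against 0.0046 for all tested genes. With library size alone 3 markers were higher and 2 lower, and their median of 0.07 stood above the -0.18 of all genes. Only Cspg4, which encodes the NG2 proteoglycan of precursors, was called higher (0.56, adjusted p = 3.85e-07 in edgeR's test), and Matn4 was called lower (-0.65). Summed, these markers were 5600 to 5880 CPM in siNC and 6750 to 6850 CPM in siEgr2. The most abundant were Olig1, a transcription factor of the lineage (0.26, adjusted p = 3.41e-05, but 0.08 and no longer passing with library size alone), and the receptor phosphatase Ptprz1 (0.15, adjusted p = 0.00822), which reached -0.03 with library size alone. Per summed marker count, Pdgfra went from 0.0843 to 0.0970 in siNC to 0.108 to 0.120 in siEgr2, and per Olig2 count from 0.735 to 0.879 to 0.969 to 1.07, in both cases without overlap. Per Cspg4 count the ranges of 2 to 2.59 and 2.18 to 2.60 overlapped. The summed list includes genes of the whole lineage, such as Olig1, so its ratio does not give Pdgfra per precursor. How far the share of precursors takes part in the Pdgfra rise was not tested.

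Pericyte and smooth muscle markers were lower beside Pdgfrb. Of 12 such genes 7 were tested and 6 were called lower, where 5.08% of all tested genes were. The median log2 fold change of the 7 was -0.72, against 0.0046 for all tested genes. The contractile genes Tagln (-0.63) and Acta2 (-0.57) led them in level. The sum of the 12 genes was 357 to 397 CPM in siNC and 236 to 302 CPM in siEgr2. Pdgfrb counts per count of these markers overlapped between the groups, at 0.121 to 0.168 in siNC and 0.0987 to 0.147 in siEgr2. The defining pericyte gene Higd1b had no count in any library, and Kcnj8 and Abcc9 were too low to be tested. Of 10 fibroblast markers, which include Fn1 (-0.25, adjusted p = 0.162 in edgeR's test) and Col1a1 (-0.16, adjusted p = 0.327, and -0.08 without siNC replicate 2), 1 was called lower, with sums of 1400 to 2130 CPM in siNC and 1290 to 1680 CPM in siEgr2. Scaled by library size alone, 3 were called lower and 7 were lower by the adjusted p, Fn1 (-0.43) and Col1a1 (-0.34) among them.

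Endothelial cells, the usual source of Pdgfb, were scarcely represented. Of 10 endothelial markers 5 passed the filter and 2 of these, Flt1 (-1.35) and Slco1a4 (-0.93), were called lower. Of all tested genes 5.08% were called lower. Cldn5 had no count in any library, and Pecam1 averaged 0.0837 CPM in siNC and 0.155 CPM in siEgr2. The summed list was 52.1 to 63.7 CPM in siNC and 39.3 to 51.1 CPM in siEgr2, most of it from Kdr (0.13, adjusted p = 0.294 in edgeR's test) and Slco1a4. Astrocyte markers were abundant, at 8300 to 9000 CPM in siNC and 5320 to 6010 CPM in siEgr2. Of these 11 markers 5 were called lower, among them Gfap (-0.56) and the glutamate transporter gene Slc1a3 (-0.85). With library size alone 8 were called lower, when 1737 of all 16600 tested genes were. Markers of myelinating OLs, such as the myelin basic protein gene Mbp (-0.28), included 6 of 15 that were lower by the adjusted p alone. By that criterion 1877 of all tested genes were lower. None of the 15 was called in edgeR's test. With library size alone 12 of them were lower by the adjusted p and 1 was called. Of 9 tested neuron markers 1 was called lower, and Map2 (0.23) and Tubb3 (-0.27) led them in level. Map2 was 0.45 without siNC replicate 2 and 0.10 without siEgr2 replicate 1. Microglia markers summed to at most 32.1 CPM in any library, none of the 4 tested was called in edgeR's test or had an adjusted p under 0.05, Tmem119 had a log2 fold change of 0.03, and Aif1 and Itgam had no count at all. The part of these cell types in the changes of Pdgfb and Pdgfrb was not tested.

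**Figure D4:**
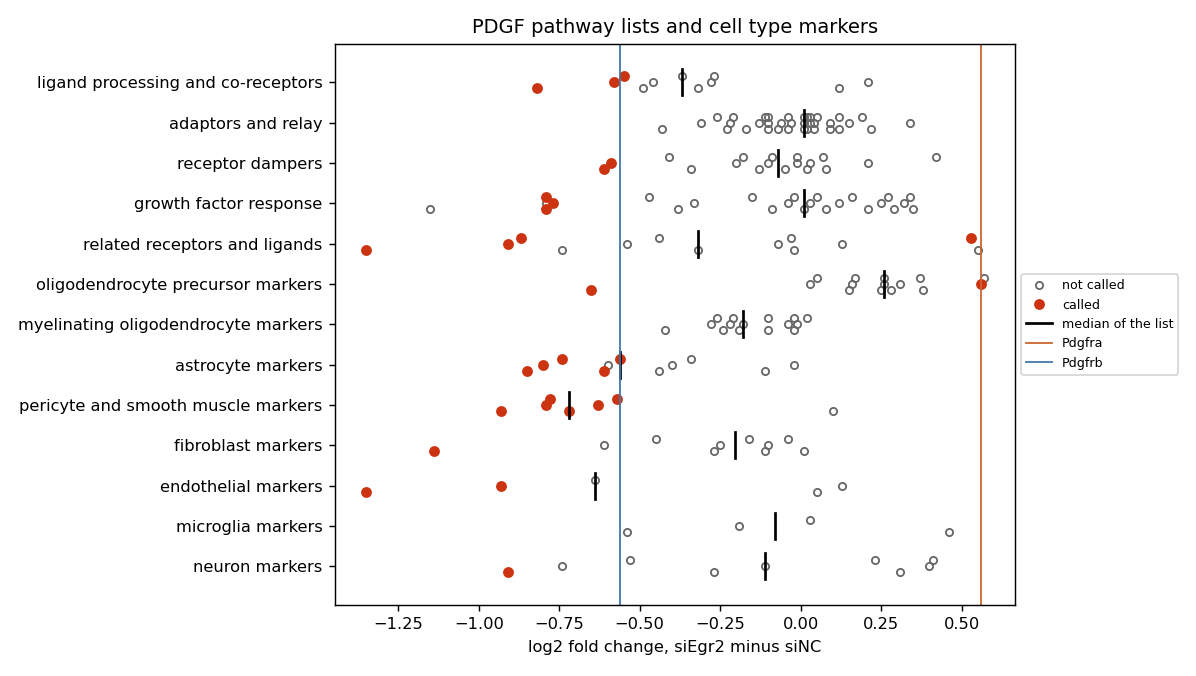
Log2 fold change of siEgr2 over siNC (horizontal axis) of each tested gene in the 5 PDGF pathway lists and the 8 marker lists. Filled points were called, black bars are list medians, and vertical lines mark Pdgfra (0.56) and Pdgfrb (-0.56). Precursor markers lie mostly to the right of 0, and astrocyte and pericyte markers mostly to the left.

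Of 11 tested genes of ligand processing and co-receptors, 3 were called lower and none higher, and the list median was -0.37. Of all tested genes 5.08% were called lower and 2.63% higher. By the adjusted p alone 6 of the list were lower and 1 higher, against 1877 and 1423 of all 16600 tested genes. With library size alone 7 of the list were called lower, when 1737 of all tested genes were. A2m, which encodes the protease inhibitor alpha-2-macroglobulin that also binds PDGF, averaged 1960 ± 115 CPM in siNC and 1110 ± 57.0 CPM in siEgr2 (SD, n = 6), and its log2 fold change was -0.82. Sparc, whose product binds PDGF-B, fell by 0.58 on the log2 scale, with 451 to 550 CPM in siNC and 339 to 372 CPM in siEgr2. Nrp1, which encodes the co-receptor neuropilin-1, had a log2 fold change of -0.55 (adjusted p = 0.0118 in edgeR's test) with overlapping groups, and lost its call in 4 of the 12 fits that left out 1 library, at -0.50 to -0.49. Plat, which encodes the tissue plasminogen activator that cuts PDGF-C, was lower without reaching the fold change threshold (-0.32, adjusted p = 0.00047), as were Lrp1 (-0.28), an endocytic partner of the beta receptor, and Nrp2 (-0.46). Plau, whose product urokinase cuts PDGF-D, did not pass (-0.37, adjusted p = 0.111). The convertase genes Furin (-0.27, adjusted p = 0.064) and Pcsk5 (-0.49, adjusted p = 0.0827) did not pass, Pcsk6 was higher by the adjusted p alone (0.21) and Pcsk7 was not (0.12, and 0.06 to 0.19 with 1 library left out). Pcsk6 no longer passed with library size alone (0.03), with no filter on low counts (0.17), or when siNC replicate 1, 2, 4 or 6 or siEgr2 replicate 3, 5 or 6 was left out (0.16 to 0.21).

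Of 35 adaptor and relay genes inside the cell none was called in edgeR's test, 2 were higher and 6 lower by the adjusted p alone, where 19.9% of all tested genes passed it, and the median log2 fold change was 0.01. Among 18 genes listed as dampers of receptor signaling, 2 were called, both lower, where 5.08% of all tested genes were called lower. With library size alone 4 were called lower, when 1737 of all tested genes were. Lrig1, which encodes a membrane protein that restrains receptor tyrosine kinases, went from 295 to 352 CPM in siNC to 197 to 235 CPM in siEgr2 (log2 fold change -0.59, adjusted p = 7.59e-07 in edgeR's test). Ifitm3, a membrane protein best known from the interferon response, had a log2 fold change of -0.61. Its place among the dampers was a choice of the list, and Lrig1 was the only other gene called there. Neither gene overlapped between the groups.

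Genes commonly induced by growth factors showed no shared direction. Of 25 tested, 3 were called lower and none higher, where 5.08% of all tested genes were called lower, and the median log2 fold change was 0.01. The number called was 5 without siNC replicate 1 and likewise without siEgr2 replicate 6, and 8, all lower, with library size alone, when 1974 of the 16600 tested genes were called. The called genes were the D-type cyclin gene Ccnd2 (-0.79, adjusted p = 1.1e-05 in edgeR's test), Ier3 (-0.77) and the MAP kinase phosphatase gene Dusp5 (-0.79), the last at 3.09 to 6.63 CPM in siEgr2. By the adjusted p alone, Myc (0.34), Spry4 (0.29), Phlda1 (0.27) and Egr1 (0.25), named after their values were seen, were higher, and 5 genes, the called ones included, were lower. With library size alone 14 of these genes were lower and none higher by the adjusted p in edgeR's test, 20 relay genes were lower and none higher, and the medians of both lists were -0.18, as was that of all genes.

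Of 13 tested relatives of the PDGF receptors and their ligands, 1 was called higher and 3 lower, against 2.63% and 5.08% of all tested genes. Kit, the nearest tested gene downstream of Pdgfra on chromosome 5, begins 377 kb after its end and averaged 37.8 ± 3.11 CPM in siNC and 54.6 ± 5.66 CPM in siEgr2 (SD, n = 6; log2 fold change 0.53, adjusted p = 0.000102 in edgeR's test). It lost its call without siEgr2 replicate 4 and with no filter on low counts, at 0.49 in each, and with library size alone (0.34). Its ligand gene Kitl fell by 0.87 and Il34, which encodes a ligand of the Csf1 receptor, fell by 0.91 on the log2 scale. Flt1 was called lower (-1.35) at 0.374 to 1.79 CPM in siEgr2, and lost the call after all libraries were thinned to the smallest total, 18S counts included (-1.21, adjusted p = 0.0545 in edgeR's test). Scaled by library size alone, 6 of the 13 were called lower and none higher. Of 6 tested neighbors of Pdgfra, 3 on each side and named after the data were seen, Kit was the only one called, and Lnx1 (0.46), which ends 449 kb before it, was higher by the adjusted p alone.

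Some genes followed the members closely over the 12 libraries. Likeness was measured as the root mean square (RMS) difference between centered log2(CPM + 0.5) profiles among tested genes whose mean log2 CPM was 2 or more. The genes nearest to Pdgfra were Kcnd2 (RMS difference 0.0665), Nova1 (0.0689) and Cdc25b (0.0749), against a spread of 0.287 in Pdgfra itself. Kcnd2 encodes a potassium channel subunit, Nova1 a splicing factor and Cdc25b a cell cycle phosphatase. Those nearest to Pdgfrb were Cxcl14 (0.114), Zfp36 (0.125) and Antxr2 (0.134), and to Pdgfb they were Ociad2 (0.142), Togaram2 (0.151) and Erbb2 (0.159). For Pdgfa the nearest were Rnf19b (0.0760), Ubtd1 (0.0773) and Cdh13 (0.0799). Pdgfc had Cdyl2 (0.143), Dusp12 (0.144) and Xpnpep3 (0.160), and Pdgfd had Efna1 (0.191), Faxc (0.229) and Tmod1 (0.288), the loosest matches. These values rank similarity of centered profiles, which include the difference between the groups, and not similarity of level. They carry no test.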

How the data were processed

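Total RNA of 12 libraries was sequenced by the authors on the Illumina platform, and the deposited values are counts for each gene symbol that were not normalized. The submitters' processing notes name the build mm10. The aligner, the counting program and its strand setting are not given in the sources used here. A blank row without counts was left out. Tests used edgeR 4.0.16 under R 4.3.3 (filterByExpr, TMM, robust quasi-likelihood test, Benjamini-Hochberg adjustment over 16600 genes), at the thresholds of the methods. CPM used the TMM-scaled totals. The procedure was tested on simulated counts. Within the groups, no library was a copy of another (chi-square per gene 7.56 to 39.8 over 30 pairs).

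The members and all lists were chosen with earlier results of these data known, and the study had screened Pdgfra on these libraries. The rule for named genes took the members, Egr2, called genes of the pathway lists (at most 4 per list), all tested genes of the first list, the 2 most abundant genes of each marker list and the 3 nearest profiles of each member. Some genes that the rule names are not reported here. Cspg4, Matn4, Olig2, Higd1b, Kcnj8, Abcc9, Cldn5, Pecam1, Aif1 and Itgam, from the marker lists, fall outside it and were chosen after their values were seen. Coordinates and lengths came from GENCODE M21 (GRCm38, the assembly of mm10), and promoter windows, which cover 3 of the ligand genes and Pdgfra here, from RefSeq.

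Alternatives were RLE, upper-quartile and library size scaling, DESeq2 1.42.0, limma-voom (limma 3.58.1), 2 other filters, a replicate block, thinning to the smallest total, structural RNA left out, no fold change threshold, other pseudocounts (1 and 0.1 CPM) and each library left out.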

Additional observations from a re-analysis of the deposited data

How the results depend on the processing

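Over the 23 alternatives, Pdgfb kept its call (-1.09 to -0.83), Pdgfra lost it only with library size alone (0.37, with 0 members called higher), and Pdgfrb only without siNC replicate 2. With 1 library left out, Pdgfrb ran from -0.60 to -0.49, Pdgfd from -0.22 to 0.10, and members called lower from 1 to 2. With library size alone 88.0% of called genes fell, against 65.9% as reported and 54.0% with DESeq2, and 26 genes of the PDGF pathway lists were called; with no fold change threshold 34 were, against 12 as reported (genes of all kinds: 1974 and 3300 against 1281). In the exact permutation test, library size alone brought Pdgfa to -0.36 and Pdgfc to -0.38, both then under a p of 0.05; leaving out 1 library gave -0.21 to -0.12 for Pdgfa, under 0.05 without siNC replicate 2, siNC replicate 4 or siEgr2 replicate 2, and -0.31 to 0.02 for Pdgfd. Signs turned with library size alone for Pcsk7 (-0.06), Kdr (-0.05), Ptprz1 (-0.03), Tmem119 (-0.14) and Efna1 (-0.17), as the median of all genes shifted to -0.18. Tmem119 and Efna1, neither of them called as reported, also turned with limma-voom (-0.03 and -0.05), no filter (-0.01 and -0.02) and the replicate block (-0.08 and -0.04), Tmem119 after thinning (-0.30), and with 1 library left out they ran from -0.38 to 0.17 and from -0.14 to 0.16. The causes were not tested. Same-numbered libraries did not deviate together (correlations -0.039 to 0.042, highest for the own number in 2 of 6), so no pairing by number was seen. This does not exclude a weak pairing. The replicate block gave 1124 called genes, left Pdgfra at 0.56 (adjusted p = 2.94e-05 in edgeR's test) and changed no call among the members. The siEgr2 libraries held as few as 43 counts of Pdgfb, 58 of Pdgfc and 25 of Pdgfd.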
